A study of Mus musculus with 4 samples.

Results

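Open chromatin around 9 genes of insulin and insulin-like growth factor (IGF) signalling was described in newborn mouse hearts with and without RXR alpha and beta, nuclear receptors for retinoids, in heart muscle cells. The genes are Igf1 and Igf2 (ligands), Insr, Igf1r and Igf2r (receptors), Irs1 and Irs2 (docking proteins), and Foxo1 and Foxo3 (transcription factors). They were chosen by name. A region counted as a member if it overlapped the GRCm38 body of a gene or the 20 kb on either side of it, and all positions below are on that build. This gave 62 of the 53140 regions made by merging overlapping peaks of the 4 deposited lists. Chromatin was assayed by ATAC-seq, in which the Tn5 enzyme cuts and tags accessible DNA, in nuclei of total hearts of C57BL/6 mice at postnatal day 0. The 2 WT hearts were wild type, and the 2 hearts labelled edKO were described as cardiomyocyte-specific RXRab-/-. The labels give neither the Cre line or other means of deletion nor the sex. Each library came from a single heart and is numbered as in the labels. A total heart holds many cell types, so fewer cells of a type and less accessible chromatin per cell cannot be told apart.

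Insulin, IGF-1 and IGF-2 bind receptor tyrosine kinases at the cell surface. The receptors phosphorylate IRS docking proteins, which recruit phosphoinositide 3-kinase and activate the kinase AKT. AKT drives glucose uptake and growth and holds FOXO factors out of the nucleus, where they would otherwise switch on genes of fasting and atrophy, Insr and Irs2 among them. In the heart the pathway supports fetal and postnatal growth of muscle cells and their use of glucose.

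The peak lists held 35279 (WT 1), 38809 (WT 2), 27473 (edKO 1) and 27142 (edKO 2) peaks. The pileup, the number of overlapping sequenced fragments at the highest point (summit) of a peak, was recovered from the authors' fold and −log10 p. Its median at the regions shared by all 4 libraries was 46, 49, 30 and 26, and the fold enrichment there had medians of 8.22, 8.74, 7.62 and 5.72. The edKO lists were thus shorter, and edKO 2 had the lowest enrichment. Of 10 heart muscle genes, 7, 7, 8 and 9 had a peak within 1 kb of a gene end in WT 1, WT 2, edKO 1 and edKO 2, among them Gata4, Tnnt2, Actc1, Myh6, Ttn, Ryr2 and Nppa in all 4, and Nkx2-5 in none. Of 5 fibroblast genes it was 3, 4, 2 and 2, of 4 endothelial genes 1, 2, 2 and 2, and of 3 immune genes 1, 1, 0 and 0. Of 3 smooth muscle and pericyte genes it was 2, 3, 2 and 1. Of 2 epicardial and of 3 red cell genes it was 1 in every library, and of 2 nerve genes 0. Of 4 genes of other organs, taken as a contrast, it was 1, 1, 2 and 1, with Sftpc called in all 4. Such a peak thus does not by itself identify a cell type. The part of these differences between libraries in the results below was not tested. A peak is called where the −log10 p passes the authors' threshold, so a missing call means a signal below it and not closed chromatin.

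The regions at the starts of Igf1r, Igf2r, Irs1, Irs2, Foxo1 and Foxo3 and at the upper end of Insr were called in every heart, whereas Igf1 had no region called in all 4. Over the windows of 21883 protein-coding genes the median was 1 region called in all 4, with a lower quartile of 0. Over the 9 genes WT 1 had 37 called regions, WT 2 had 50, edKO 1 had 32 and edKO 2 had 33. The means were 43.5 ± 9.19 (SD, n = 2) for WT and 32.5 ± 0.707 (SD, n = 2) for edKO, a ratio of 0.747 against 0.728 over all merged regions. Both edKO counts lay below both WT counts, and the exact permutation test gave p = 0.333 (two-sided), the smallest p that 2 hearts against 2 allow. With every list cut to its 27142 strongest peaks the counts were 31, 34, 32 and 33, and the difference of the means was 0. The difference of 11.0 regions became 17.0 without WT 1 and 4.50 without WT 2.

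Of the 62 regions 21 were called in all 4 libraries (33.9%, against 31.2% of all merged regions) and 22 in a single library (35.5%, against 39.3%). The single-library regions were mostly those of WT 2 (11) and edKO 2 (8), with 2 in WT 1 and 1 in edKO 1. Over the series these libraries also held most of them, with 7466 in WT 2 and 6093 in edKO 2, against 4921 in WT 1 and 2424 in edKO 1. Of the 35 regions called in both WT hearts, 21 were called in both edKO hearts (60%, against 59.0% of all such regions of the series). A further 8 were called in 1 edKO heart (22.9%, against 21.6%). The remaining 6 were called in neither edKO heart and are named WT-only here (17.1%, exact 95% binomial interval 6.56 to 33.6, covering counting error only). That share was 19.4% over the whole series and 17.7% over regions within 20 kb of any protein-coding gene, so the members lay near the background. The count was 17 without WT 1 (34.0%, against 34.2% over the series) and 11 without edKO 1 (31.4%, against 35.9%), and 2 with lists of equal length (7.14%, against 10.6%). A single region was called in both edKO hearts and in neither WT heart (edKO-only), 1 of 22, and the series share of edKO-only among regions that both edKO hearts had was 1.35%. Without edKO 1 it was 9 of 33, where the series share was 24.2%, and without edKO 2 it was 2 of 32, where the series share was 10.1%.

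**Figure D1:**
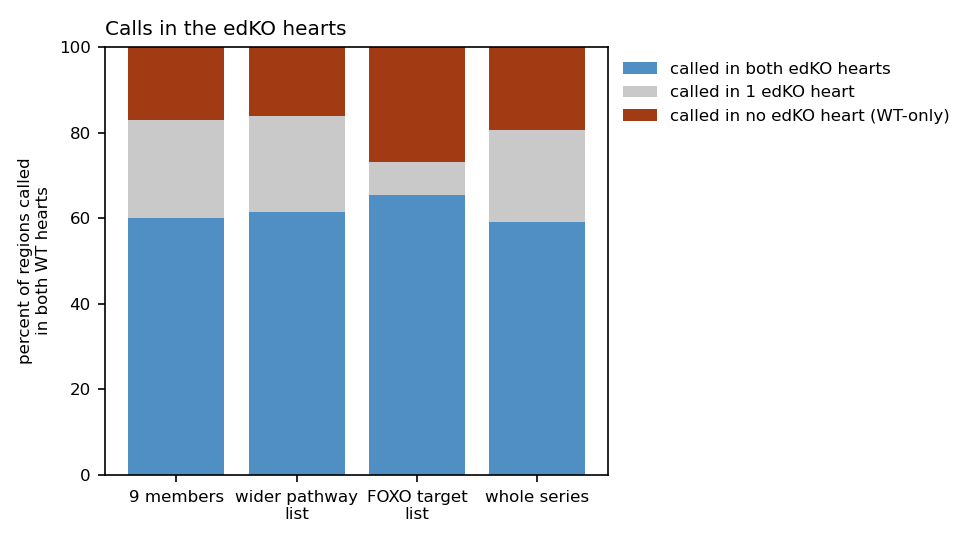
Bars show regions called in both WT hearts for the 9 genes (35 regions), the wider pathway list (174), the FOXO target list (52) and the whole series (28087). Colours split each bar, in percent, by whether both, 1 or neither edKO heart was called, and the WT-only part was 17.1%, 16.1%, 26.9% and 19.4%.

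The 9 windows differed in how many regions they held. Igf1r, with the longest window, held 19 regions, Igf2r 11, Insr 8, Foxo3 7, Irs1 and Foxo1 4 each, and Igf1, Igf2 and Irs2 3 each. Per 100 kb of window the density ran from 2.53 (Igf1) to 8.64 (Igf2r) and was 5.12 over the 9 windows together. The median over 21883 protein-coding genes was 3.63 (quartiles 0.960 and 7.05), and only Igf1 and Foxo1 (3.28) lay below it. Igf1 was the lowest of the 9, and Igf2r stood above the upper quartile. WT-only regions were found in 4 of the genes, Igf1r and Igf2r with 2 each and Insr and Igf1 with 1 each.

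**Figure D2:**
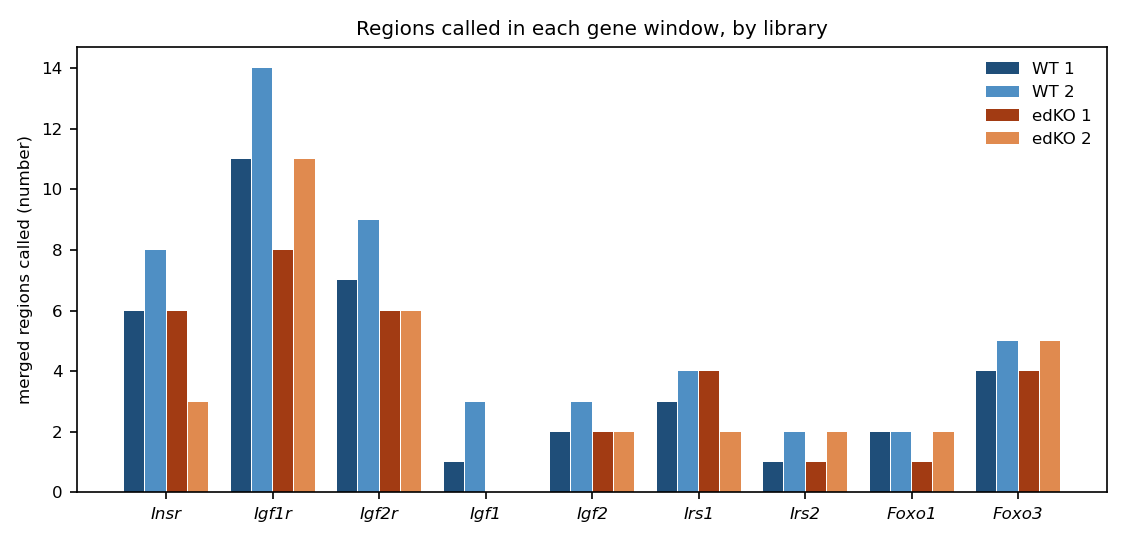
Bars give the number of merged regions called in each library (WT 1, WT 2, edKO 1, edKO 2) in the window of each gene, from a vertical axis that starts at 0. The windows of Igf1r (11, 14, 8 and 11 regions) and Igf2r (7, 9, 6 and 6) held most, and that of Igf1 (1, 3, 0 and 0) held none in the edKO hearts.

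Insr encodes the insulin receptor (chromosome 8, 3150922 to 3279649). The gene table gives no strand for it, so distances are from its upper gene end. Every library had the region at that end (3279160 to 3279849), and its −log10 p was 65.0, 74.1, 56.8 and 36.2 (in the order WT 1, WT 2, edKO 1, edKO 2, kept throughout), with pileups of 83, 92, 69 and 52. Still stronger regions lay inside the gene body. One 92.0 kb in (3187417 to 3187908) had −log10 p of 103, 112, 79.1 and 36.4 and pileups of 116, 127, 86 and 51, which put it at the 95.7th, 96.1st, 94.8th and 89.5th percentile of the respective lists. Another 58.3 kb in (3220904 to 3221710) had −log10 p of 82.4, 93.4, 70.0 and 39.8. The summits of these regions differed by 66 and 60 bases between the 4 libraries, so the hearts peaked at nearly the same place. All 3 were called in every heart, with edKO 2 the lowest in −log10 p each time.

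Between these strong sites lay the strongest WT-only region of the 9 genes (3230539 to 3231051, 48.9 kb in). WT 1 had a −log10 p of 18.2 there and WT 2 one of 16.1, its fold enrichment 6.56 and 6.59, and its pileup 31 and 26. It stood at a mean WT percentile of 62.6. Of the 14062 regions that both WT hearts had at or above the 60th percentile, 1.85% were WT-only, and among the members it was 1 of 21. Below it the share was 36.9% over the series and 5 of 14 among the members. This boundary was chosen after the values had been seen. The next 2 regions of Insr toward its upper end lay 42.1 kb in (3237333 to 3237792) and 32.4 kb in (3247124 to 3247471). They were shared by the WT hearts and edKO 1, at −log10 p of 15.4, 14.4 and 13.4 and of 8.81, 9.99 and 10.8. Without edKO 1, the only edKO heart that called them, both would count as WT-only. In edKO 1 these 2 weaker regions on one side and the strong region 58.3 kb in on the other were called, but not the region between. Of these regions edKO 2 called only the strong one. What lay behind the missing calls was not tested.

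Igf1r encodes the IGF-1 receptor, the main growth-promoting receptor of the family (chromosome 7, 67952257 to 68233668, plus strand). The region over its start (67950682 to 67952446), at 1765 bases the widest of the 62, had −log10 p of 74.4, 90.7, 38.7 and 27.9 and fold enrichments of 9.76, 11.7, 8.21 and 6.64. Its summits lay up to 806 bases apart between libraries, so these values need not come from the same place. Both edKO values lay below both WT values on each measure. The medians over all regions called in all 4 libraries had the same order, at 29.2, 32.3, 19.9 and 13.9 for −log10 p. At the upper end of Insr and at the starts of Irs1, Irs2 and Foxo1 both edKO values of −log10 p also lay below both WT values. Inside the gene body 3 regions were called in all 4 hearts. That 177 kb from the start (68128950 to 68129537) had −log10 p of 68.0, 41.7, 64.9 and 40.4, that at 58.1 kb (68010152 to 68010632) 38.2, 37.1, 33.7 and 17.9, and that at 69.7 kb (68021759 to 68022142) 19.4, 33.9, 38.4 and 16.1. In the region at 69.7 kb edKO 1 was the highest of the 4.

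The WT-only regions of Igf1r were weak. Those at 79.5 kb (68031556 to 68031920) and 134 kb (68085933 to 68086266) had WT values of −log10 p of 5.11 and 5.50 and of 6.06 and 6.14, with pileups of 10 to 13 and mean WT percentiles of 6.22 and 12.1. Next to the first, edKO 2 had a peak of its own (68030983 to 68031186) that did not overlap it. The edKO-only region lay 113 bases beyond the far end of Igf1r (68233781 to 68234106), between it and Pgpep1l. edKO 1 had a −log10 p of 5.86 and edKO 2 one of 6.03, its pileups were 11 and 13 and its summits 14 bases apart. Regions called in both WT hearts and 1 edKO heart numbered 4 in Igf1r, of which 3 were called in edKO 2 and 1 in edKO 1. Over the 9 genes 5 of 8 such regions were called in edKO 1, against 76.2% of the 6079 in the whole series.

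Igf2r encodes the mannose 6-phosphate receptor, which clears IGF-2 and does not signal as a tyrosine kinase (chromosome 17, 12682406 to 12769706, minus strand). It is imprinted in mice, and the non-coding RNA Airn, which starts inside it on the opposite strand, silences the paternal copy. The region over the Igf2r start (12769256 to 12770058) had −log10 p of 32.5, 27.0, 18.7 and 12.2 and pileups of 57, 49, 31 and 27. The region over the listed Airn start, 28.4 kb inside Igf2r (12741128 to 12741553), had −log10 p of 17.7, 21.1, 19.8 and 11.9 and pileups of 41, 48, 36 and 26. Both starts were called in every heart, and in the Airn region the −log10 p of edKO 1 lay between the WT values. A neighbour 29.2 kb inside (12740258 to 12740678) had −log10 p of 16.9, 22.4, 9.54 and 5.81. Both edKO hearts were below both WT hearts there, as at the Igf2r start. The median −log10 p over all regions called in every heart was also lower in both edKO hearts.

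Regions 9.83 kb (12759636 to 12760107) and 80.8 kb (12688536 to 12689292) inside Igf2r were also called in all 4, at −log10 p of 25.5, 15.5, 16.6 and 7.96 and of 16.9, 11.5, 6.31 and 6.33. The WT-only regions lay 43.6 kb inside (12725988 to 12726194), at 9.45 and 7.86, and 10440 bases upstream of the gene within Airn (12780146 to 12780505), at 7.32 and 12.5. Their pileups were 24 and 22, and 18 and 24, and their fold enrichments 4.03 and 3.62, and 3.82 and 5.32. By −log10 p they stood at mean WT percentiles of 33.1 and 37.7. The region within Airn was the only WT-only region of the 9 genes that overlapped no body of a protein-coding gene.

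Promoter sequences of the RefSeq table (GRCm38.p6) were at hand for 8 of the 9 genes, with 4 starts for Igf2, and Insr had no entry. The 250 bases before each start were searched on both strands for GTAAACA, the FOXO element, CAAAACA, the core of the insulin response element, AGGTCA, the element to which RXR and its partners bind, and pairs of AGGTCA as direct repeats with 1, 4 or 5 bases between. Over all 32851 promoters these occurred in 3.17%, 5.56%, 14.0%, 0.0335%, 0.0152% and 0.00913%. GTAAACA and the repeats were found in none of the 11 members' promoters. AGGTCA was found before the starts of Igf1r and Igf2r, shown here because both starts were called in every heart, with the matched letters in capitals (TGACCT on the opposite strand). The Igf1r stretch lies at chr7:67952007-67952256 on the plus strand and that of Igf2r at chr17:12769707-12769956 on the minus strand.
Igf1r: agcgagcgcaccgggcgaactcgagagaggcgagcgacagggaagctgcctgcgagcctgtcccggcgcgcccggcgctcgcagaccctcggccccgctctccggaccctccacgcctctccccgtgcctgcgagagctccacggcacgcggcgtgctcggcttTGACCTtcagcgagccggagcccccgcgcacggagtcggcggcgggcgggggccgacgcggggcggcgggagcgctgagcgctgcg
Igf2r: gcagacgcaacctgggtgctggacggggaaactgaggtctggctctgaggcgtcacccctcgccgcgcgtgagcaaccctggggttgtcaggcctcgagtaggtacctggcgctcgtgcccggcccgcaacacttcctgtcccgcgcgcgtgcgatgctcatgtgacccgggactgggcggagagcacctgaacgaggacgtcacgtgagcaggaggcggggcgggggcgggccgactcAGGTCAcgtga

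The matches lay 86 to 81 bases before the Igf1r start and 11 to 6 bases before that of Igf2r. GGGCGG, the box bound by Sp1 in promoters rich in C and G, was found in 32.7% of all promoters and before the starts of Igf1r, Igf2r, Irs1, Irs2, Foxo1 and Foxo3 and 2 of the 4 starts of Igf2, but not of Igf1. A match describes the letters and does not show that a factor binds there.

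Igf1 encodes IGF-1, the growth factor that acts through Igf1r (chromosome 10, 87858265 to 87937047, plus strand). No library had a peak within 1 kb of its listed start at 87861111. Over the 17491 protein-coding genes with a listed start, 39.7% had no region there in any library. The window held 3 regions, called only in WT hearts. One 69.2 kb inside the gene (87927282 to 87927602) was WT-only, and its −log10 p reached 5.48 (WT 1) and 13 (WT 2), with pileups of 10 and 18. The others, 3599 bases before the gene body (87854467 to 87854666) and 35.2 kb inside it (87893297 to 87893548), were called in WT 2 alone, at −log10 p of 6.72 and 6.33. With lists of equal length the window held 1 region, which was not WT-only.

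Igf2 encodes IGF-2, the imprinted fetal growth factor expressed from the paternal copy (chromosome 7, 142650768 to 142666816, minus strand). Of its 4 listed starts, that at 142658804 had a region within 1 kb (142659173 to 142659715), which also overlapped the antisense gene Igf2os. It was called in all 4 libraries, at −log10 p of 25.0, 26.9, 19.5 and 10.1 and pileups of 53, 57, 37 and 30. A region 5186 bases beyond the gene's far end (142644950 to 142645582) was called in all 4 as well, at 18.7, 34.9, 18.6 and 8.82. A further region was called in WT 2 alone. Ins2, which encodes insulin 2, lies within the same window, and no region overlapped it. The stretches before the Igf1 start and before the Igf2 start farthest upstream, at 142666816, are shown because no library had a peak within 1 kb of either. They lie at chr10:87860861-87861110 on the plus strand and at chr7:142666817-142667066 on the minus strand, and capitals mark AGGTCA or its reverse complement.
Igf1: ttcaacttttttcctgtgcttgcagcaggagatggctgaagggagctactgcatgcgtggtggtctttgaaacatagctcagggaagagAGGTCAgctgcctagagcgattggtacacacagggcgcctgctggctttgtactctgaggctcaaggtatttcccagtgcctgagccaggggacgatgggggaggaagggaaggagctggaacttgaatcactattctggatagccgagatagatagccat
Igf2: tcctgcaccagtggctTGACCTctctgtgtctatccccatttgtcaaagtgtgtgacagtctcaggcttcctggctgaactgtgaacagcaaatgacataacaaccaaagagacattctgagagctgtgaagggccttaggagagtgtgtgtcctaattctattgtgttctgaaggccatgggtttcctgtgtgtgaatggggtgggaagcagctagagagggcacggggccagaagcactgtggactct

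The Igf1 stretch was 52.8% C and G and that of Igf2 50.8%, near the median of 52.4% over all promoters. Before the starts of Igf1r, Igf2r, Irs1, Irs2 and Foxo3, where every heart had a region, it was 69.2% to 77.6%, and 56.0% before that of Foxo1. The other 3 Igf2 starts had 68.8% (at 142658804, the one with a region), 66.0% (at 142657496) and 47.6% (at 142661271), so starts without a peak were not all poor in C and G.

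**Figure D3:**
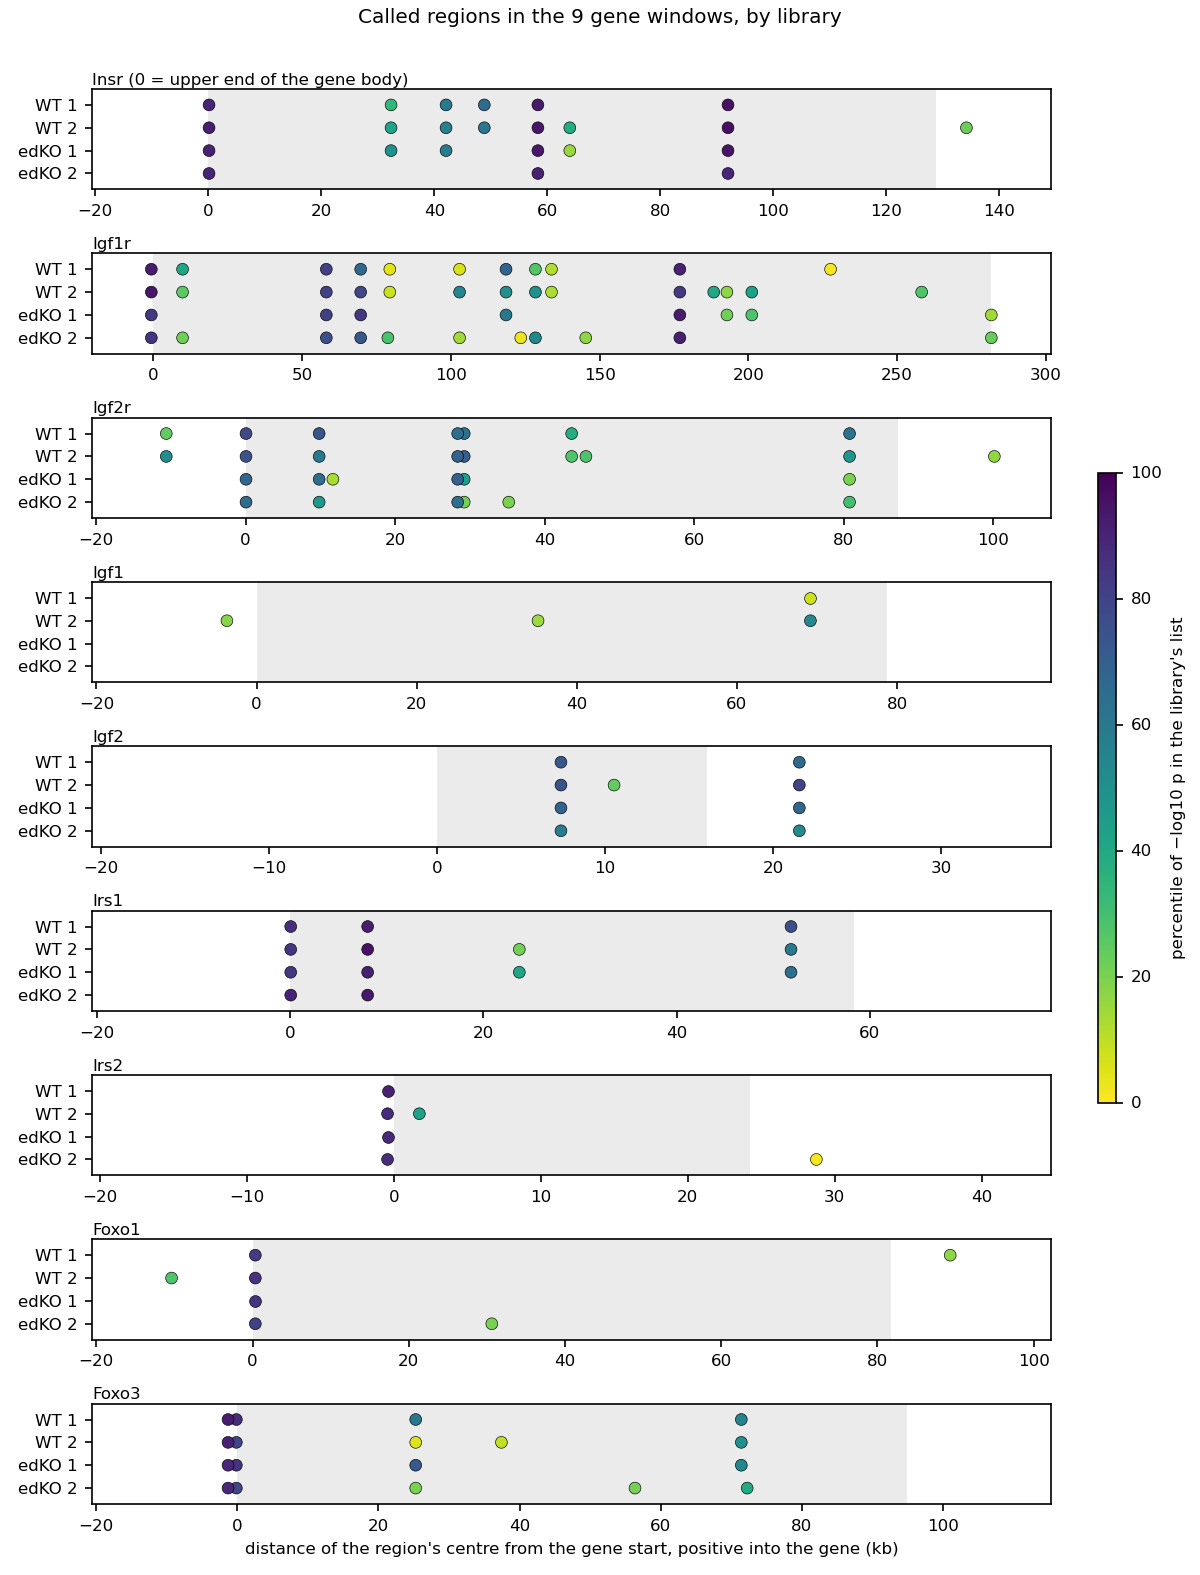
Each panel shows a gene window, with the distance of a region's centre from the gene start in kb on the horizontal axis (positive into the gene, for Insr from the upper gene end) and a row for each library. Grey marks the gene body, a point a called region, and its colour the percentile of −log10 p in that library's list. Columns of 4 dark points at or near 0 mark the upper end of Insr and the starts of Igf1r, Igf2r, Irs1, Irs2, Foxo1 and Foxo3, and the Igf1 panel has no point in either edKO row.

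Irs1 encodes the docking protein through which both receptors activate phosphoinositide 3-kinase (chromosome 1, 82233105 to 82291439, minus strand). The region over its start (82290862 to 82291934) had −log10 p of 51.5, 45.5, 38.5 and 38.3 and pileups of 81, 72, 56 and 62. A stronger one lay 8.01 kb inside the gene (82283140 to 82283717), at −log10 p of 76.1, 104, 59.8 and 48.4 and pileups of 99, 122, 72 and 62. Its 4 summits lay within 6 bases, the smallest spread among the 21 regions called in all 4, whose median was 60 bases against 70 over the series. A further region, 51.9 kb inside (82239391 to 82239773), was shared by the WT hearts and edKO 1, at 29.7, 15.6 and 16.4, and missed in edKO 2. Irs1 had no WT-only region.

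Irs2 encodes the related docking protein that FOXO factors induce in fasting (chromosome 8, 10984681 to 11008929, minus strand). The region over its start (11008747 to 11009950) had −log10 p of 69.5, 53.1, 47.9 and 31.3 and pileups of 118, 95, 77 and 62. It was called in every heart, and its other 2 regions were called in a single library each, WT 2 and edKO 2. CAAAACA, read as TGTTTTG on the printed strand, was found in the promoters of Irs1 and Irs2 and of no other member, and both are shown for it. The Irs1 stretch lies at chr1:82291440-82291689 and that of Irs2 at chr8:11008930-11009179, both on the minus strand.
Irs1: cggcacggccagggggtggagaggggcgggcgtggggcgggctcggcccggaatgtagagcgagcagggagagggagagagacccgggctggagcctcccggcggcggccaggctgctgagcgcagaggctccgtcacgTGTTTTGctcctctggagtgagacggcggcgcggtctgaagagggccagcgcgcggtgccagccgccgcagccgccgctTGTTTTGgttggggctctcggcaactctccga
Irs2: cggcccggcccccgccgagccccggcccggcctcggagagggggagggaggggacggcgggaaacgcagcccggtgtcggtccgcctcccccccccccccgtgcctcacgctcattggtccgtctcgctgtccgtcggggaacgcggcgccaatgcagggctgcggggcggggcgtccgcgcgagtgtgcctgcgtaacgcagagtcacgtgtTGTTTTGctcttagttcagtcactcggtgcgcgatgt

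In Irs1 the matches lay 111 to 105 and 32 to 26 bases before the listed start, and in Irs2 37 to 31 bases before it. The called regions over both starts covered these positions in the merged set.

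Foxo1 and Foxo3 encode the transcription factors that AKT keeps out of the nucleus. Foxo1 lies on the plus strand of chromosome 3 (52268337 to 52350109) and Foxo3 on the minus strand of chromosome 10 (42181845 to 42276695). The region over the Foxo1 start (52267934 to 52269452) had −log10 p of 40.8, 49.0, 40.1 and 22.6 and pileups of 63, 69, 54 and 41. It was the only Foxo1 region called in more than 1 library. The Foxo3 start carried 2 regions, one over it (42276575 to 42277039) at 54.5, 35.2, 41.0 and 20.2 and one just upstream (42277519 to 42278442) at 73.5, 68.9, 50.9 and 35.2. Both were called in every heart. Inside Foxo3 a region 25.3 kb from the start (42251176 to 42251622) varied more between hearts of a group than between groups, at 15.7, 5.22, 22.2 and 5.70. Another, 71.4 kb inside (42205085 to 42205474), was shared by the WT hearts and edKO 1, at 13.6, 12.1 and 12. Neither gene had a WT-only or an edKO-only region.

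By location, the members' starts were called more uniformly than their gene bodies. Of the 8 members with a listed start 7 had a region within 1 kb of it in all 4 libraries, against 49.1% of all protein-coding genes with one, and Insr had one at its upper end. Of all merged regions at gene ends 65.3% were called in all 4, and of those in gene bodies 19.8%. The members had 8 regions at gene ends that both WT hearts shared, and both edKO hearts had each of them, where 5.92% of such regions in the series were WT-only. In gene bodies 5 of 25 were WT-only (20%, against 27.0%) and between genes 1 of 2 (against 29.2%).

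The 21 regions called in all 4 libraries could be ranked against the same 16568 regions in each heart. Both edKO ranks lay below both WT ranks in 3 of them (14.3%, against 19.9% over the series) and above in 6 (28.6%, against 20.2%), and 12 overlapped. The lower ones were the Igf1r start and the Igf2r regions 29.2 and 80.8 kb inside. At the Igf1r start the rank percentiles were 82.9 and 86.0 in WT against 74.0 and 75.7 in edKO. The summits of that region lay up to 806 bases apart, against a median spread of 60 bases over the 21 regions. Regions ranked higher were the gene end of Insr, the starts of Irs1 and Foxo1 and the Airn start in Igf2r. The Igf1r regions at 69.7 and 177 kb ranked higher too. At the Airn start the percentiles were 29.4 and 32 in WT against 49.8 and 42.7 in edKO, and at the Irs1 start 71.7 and 63.9 against 73.8 and 84.1. The median shift from WT to edKO was 1.38 percentile points, from -18.8 to 22.6. Ranked by fold the Igf1r region at 69.7 kb and the Foxo1 start overlapped, and ranked by pileup the Igf2r region at 80.8 kb did, while the other 4 higher and 2 lower regions kept their order by both measures. Within Igf1r and within Igf2r some regions ranked lower and others higher. For a single region no exact p below 0.333 is possible.

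**Figure D4:**
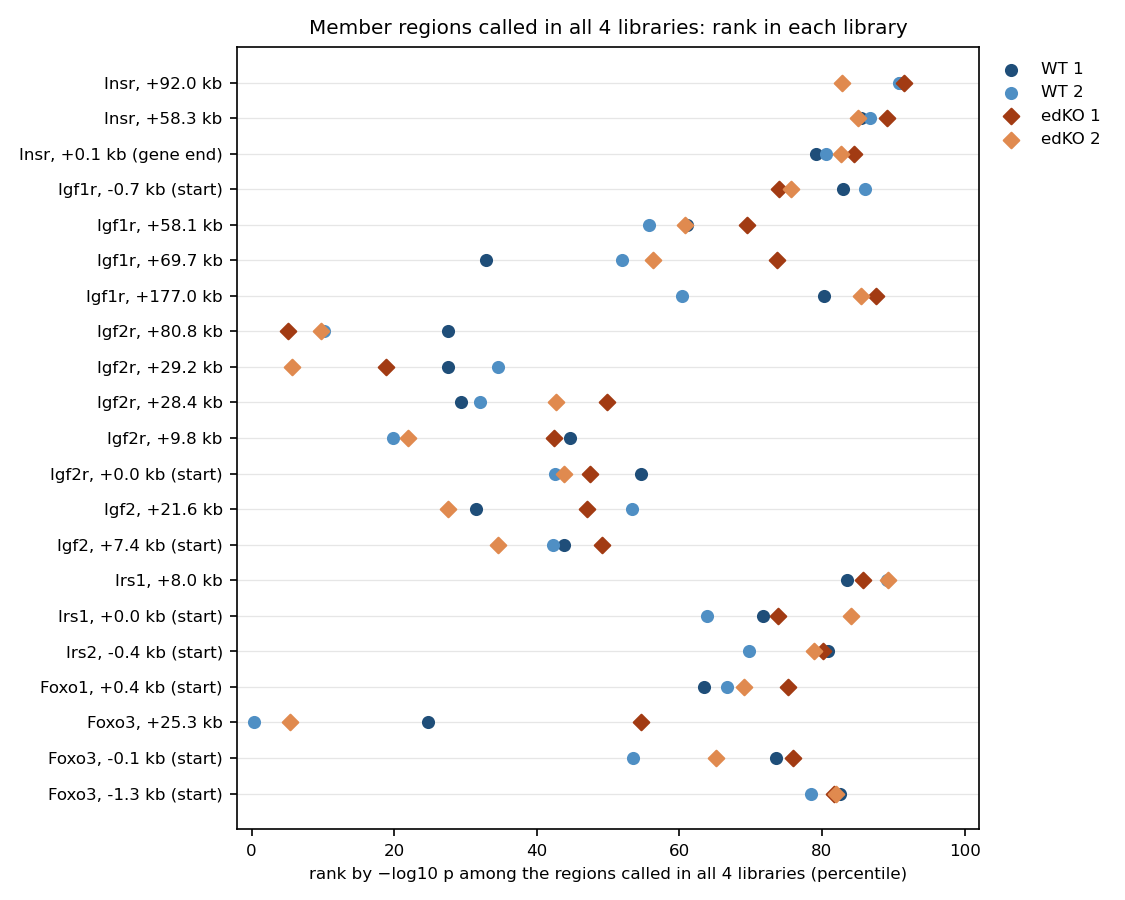
Each line is a member region called in all 4 libraries, named by gene and distance from the gene start in kb. The horizontal axis is its percentile by −log10 p among the 16568 regions called in all 4, with circles for the WT hearts and diamonds for the edKO hearts, and circles and diamonds overlap on 12 of the 21 lines.

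Genes whose calls were most like those of Igf1r, the member with most regions, were sought among 1077 protein-coding genes with at least 10 regions. The measure was the Euclidean distance between the 4 shares of regions called, over 4 libraries. Igf1r had 57.9%, 73.7%, 42.1% and 57.9% of its regions called in WT 1, WT 2, edKO 1 and edKO 2. The nearest were Arhgap23 (distance 4.79 percentage points), Mvp (5.18) and Niban1 (5.18). Mvp and Niban1 had 60%, 70%, 40% and 60% each, over 10 regions.

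The wider pathway was described in the same way. A list of 52 further genes (insulins, IGF-binding proteins, adaptors, phosphoinositide 3-kinase, AKT, mTOR and their regulators) had 299 regions outside the windows above, of which 208, 227, 163 and 156 were called in WT 1, WT 2, edKO 1 and edKO 2. Of 174 that both WT hearts shared, 28 were WT-only (16.1%, against 19.4% over the series and 17.7% near protein-coding genes), in 20 genes. That count was 70 without WT 1 (30.4%, against 34.2% over the series), 56 without WT 2 (26.3%, against 30.4%) and 54 without edKO 1 (31.0%, against 35.9%), since fewer calls are then asked for. With lists of equal length it was 9 (6.92%, against 10.6%). The genes named next are thus those with most such regions in a list whose share lay below that of the series. Grb10, an imprinted adaptor that restrains both receptors, had 4 of 10, led by a region in its body (chromosome 11, 11957205 to 11957567) at −log10 p of 17.6 and 12.6. Akt1 (of 6), Eif4ebp1 (of 5), Gab1 (of 6) and Igf2bp3 (of 6) had 2 each, and Igfals (of 4) and Tsc2 (of 3), named after their values were seen, had as many. The edKO-only region of the list lay in Tbc1d4, which encodes the AKT substrate that releases glucose transporters to the cell surface (chromosome 14, 101597180 to 101597571), at 4.51 and 7.74. It was 1 of 113 regions of the list that both edKO hearts shared (0.885%, against 1.35% over the series). Of 43 genes of the list with a listed start 32 had a region there in all 4 libraries and 5 in none. Over all protein-coding genes with a listed start these shares were 49.1% and 39.7%.

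Among FOXO target genes the share was larger in number but not tested. Of 52 regions of 18 genes that both WT hearts shared, 14 were WT-only, in 8 genes. This was 26.9%, against 19.4% over the series and 17.7% near protein-coding genes. The share was below that of the whole series under some alternatives. It was 18.4% against 21.6% at −log10 p of 10 or more. Without WT 2 it was 29.8% against 30.4%, and without edKO 1 34.6% against 35.9%. It was above that of the series under others. With lists of equal length it was 22.7% against 10.6%, and with 50 kb on each side 23.7% against 19.4%. Without edKO 2 it was 26.9% against 24.6%, and without WT 1 34.4% against 34.2%. Txnip, which restrains glucose uptake, had 4 of 8, the strongest at −log10 p of 31.0 and 15.9 (chromosome 3, 96575523 to 96576006). Without Txnip, which was on the list although its WT-only regions were known, it was 10 of 44 (22.7%). Trim63 (of 6), a ubiquitin ligase of muscle atrophy, Bcl2l11 (of 6), a promoter of cell death, and Pck1 (of 3), an enzyme of glucose synthesis, had 2 each. The strongest of Trim63 (chromosome 4, 134300247 to 134300743) stood at 22.6 and 37.6. Fbxo32, another such ligase, had 1 of 5, as G6pc, Gadd45a and Klf2 had 1 each. The share did not hold for gene bodies alone, where it was 10.7% with 3 WT-only regions, against 19.4% over the series.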

How the data were processed

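ATAC-seq peak lists of 4 hearts were used, 1 list per library. MACS2 is named for these lists in the submitters' processing notes, beside Bowtie2, SAMtools, cutadapt, CASAVA and bcl2fastq, with the builds mm10 and GRCm38. Versions, the Tn5 shift and the handling of duplicates were not given in the sources used here. The authors' deposited lists give a fold enrichment ratio, a −log10 p, a −log10 q-value, a score and a summit position per peak. The fold and −log10 p are the authors' and describe or rank peaks within a list, since they scale with depth and background. The score and the −log10 q were not used.

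Peaks overlapping by at least 1 base were merged. Pileups were solved from fold and −log10 p under a Poisson tail (whole number within 0.001 in −log10 p for 99.99% to 100.0% of peaks), and the lowest peak of a list had a pileup of 6 or 7. Where a library had several peaks in a region, the strongest was used. Gene positions came from the RefSeq table of GRCm38.p6, which holds no exons, so exons and introns were not told apart, and starts and strands came from its promoter table. Counts per library were compared by an exact permutation test, two-sided. Regions were described beside the share over the whole series, with no test. Scripts (Python 3.11.15, pandas 2.3.3, SciPy 1.17.1) were tested on simulated data.

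The members and lists were chosen with earlier results of these data known. The named regions were those at gene starts, the strongest other region of a window and all WT-only and edKO-only regions, and from the wider lists the genes with most WT-only regions. Promoters without a matched element other than GGGCGG are not printed.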

Additional observations from a re-analysis of the deposited data

How the results depend on the processing

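The share of WT-only regions stayed within its interval (6.56 to 33.6) under every alternative but the loss of WT 1. That interval is wide and takes regions as independent, so lying within it says little about stability. Without a library WT-only also asks for fewer calls, and the series share moved too. Raising the −log10 p minimum to 10 left 3 WT-only regions in 2 genes (Insr and Igf2r) and 0 edKO-only regions, 17 WT-only regions in the wider pathway and 7 among FOXO targets. With lists of equal length the difference between WT and edKO counts was 0, with 2 WT-only regions in 2 genes (Insr and Igf2r) and 9 in the wider pathway. Windows around summits gave 2 edKO-only regions. With gene bodies alone there were 0 edKO-only regions, 18 WT-only regions in the wider pathway and 3 among FOXO targets, since fewer regions were counted, and with 50 kb on each side 10 WT-only regions in the 9 genes. Leaving out each library in turn, which asks for fewer calls, gave 8 (without WT 2) to 17 (without WT 1) WT-only regions, 21.6% to 34.0% of those called in the WT hearts left, in 4 to 8 genes. It gave 1 to 9 (without edKO 1) edKO-only regions, 41 to 70 WT-only regions in the wider pathway, and differences between group counts of 4.50 (without WT 2) to 17.0 (without WT 1). The whole-series share of WT-only regions was 34.2% without WT 1. The difference between WT and edKO counts was 0 or above under every alternative run here, but sizes moved, the WT-only share from 7.14% (equal length) to 34.0% (without WT 1). Ranked by fold or pileup in place of −log10 p, an alternative chosen after seeing the data, the edKO ranks lay below in 3 and 2 regions and above in 8 and 7. With the replicate block, pairing libraries by number, the mean difference was 11.0 regions (5 and 17), p = 0.5 by an exact sign-flip test, the smallest that 2 pairs allow. Whether the numbers pair the hearts is not known. The differences between replicates of WT and of edKO correlated at 0.00982 over the regions called in all 4. That value cannot decide it, as paired hearts need not share such differences. Low pileups limit the weak regions, where 10 to 13 fragments decided a call.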
